A study of Mus musculus with 6 samples.

Results

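The AP-1 and EGR factors described here are 10 genes: Fos, Fosb, Fosl1 and Fosl2 of the FOS family, Jun, Junb and Jund of the JUN family, and Egr1, Egr2 and Egr3 of the EGR family. They were picked by gene symbol from a deposited table of 54532 mouse genes, and all 10 were found in it. The choice was made with the metformin contrast of these same samples already known, so the differences of the members between the groups are given as descriptions. Where calls of the members are counted below, nothing is read from the counts. RNA sequencing was performed on MC3T3-E1 cells, which are 1 clonal line of mouse pre-osteoblasts that deposits mineralized matrix under osteogenic induction. The control group was 3 samples in osteogenic medium, and the metformin group was 3 samples in osteogenic medium with metformin, a biguanide that lowers blood glucose. By the study's methods this medium holds β-glycerophosphate, ascorbic acid and dexamethasone, so the controls also received a glucocorticoid. The metformin concentration of 0.2 mM and the induction of 3 days are stated in the study's text, whereas the sample labels give neither. Whether the controls received a vehicle is not given in the sources used here. The study calls the samples of a group biological replicates, but the labels do not say that they came from separate cultures, and p-values would then measure the spread between these samples only.

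FOS and JUN proteins are basic leucine zipper (bZIP) factors that join as dimers to form AP-1, which binds the palindromic site TGACTCA. FOS proteins need a JUN partner to bind DNA, while JUN proteins can also pair among themselves. EGR proteins are zinc finger factors that bind GC-rich sites such as GCGTGGGCG. Most of these genes are immediate early genes, which are transcribed shortly after serum, growth factors, mechanical load or stress without the need for new proteins, and their mRNAs are short-lived. In bone, Fos is required for the formation of osteoclasts, and mice that overexpress Fosl1 or a short form of Fosb gain bone through their osteoblasts.

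The table gives each gene a value in FPKM, reads scaled by the length of the gene and by the library. Levels set side by side between genes, as in the order and shares of the members below, depend on the length used. This length was 9680 bases for Fosl2 and 6243 for Fosb, against 6537 and 3782 in their longest coding transcripts. For Jun and Jund it equalled that of the transcript. The reads behind the values could be recovered, and they totalled 18399861 to 22111790 per sample. A member had between 168 reads (Fosb in control replicate 1) and 10278 reads (Egr1 in metformin replicate 2). Control replicate 1 stood apart from the other samples. Its correlation with the other controls was 0.952 to 0.96 across genes, against 0.988 between control replicates 2 and 3 and 0.992 among the metformin samples. Mitochondrially encoded genes held 6.36% to 10.01% of the reads in the controls and 2.72% to 3.16% with metformin, and their part in the differences described here was not tested. Of 8 osteoblast markers all passed the limit on expression, with Runx2 between 25.8 and 34.1 FPKM over the 6 samples. Of 12 markers of leukocytes, endothelium, muscle, epithelium, adipocytes and cartilage, 3 (Myod1, Myog and Epcam) were listed at 0 in every sample, and the summed level of the list was 8.64 to 14.1 FPKM in the controls and 9.58 to 11.1 FPKM with metformin. The highest of them was Col2a1, a cartilage collagen, at 9.71 FPKM ± 2.88 (SD, n = 3) in control and 8.92 ± 0.696 (n = 3) with metformin. Of the other markers only Cd68, a macrophage gene, also passed the limit on expression, and it fell from 2.04 ± 0.0955 to 1.17 ± 0.119 FPKM (adjusted p = 0.0102 by limma with Benjamini-Hochberg adjustment), while Ptprc, which defines leukocytes, was listed at 0 in all samples except control replicate 2. In bulk RNA, a change in the share of cells that express a gene and a change in RNA per cell cannot be told apart.

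Among the FOS family, Fos and Fosb showed by far the larger differences, while Fosl1 and Fosl2 were 1.75-fold and 1.49-fold higher in mean FPKM with metformin. Fos (ENSMUSG00000021250, chr12:85473890-85477273, plus strand) encodes the founding member of the family. It stood at 6.92, 12.04 and 15.1 FPKM in the control replicates 1, 2 and 3 and at 118, 103 and 86.0 FPKM in the metformin replicates 1, 2 and 3. The lowest metformin sample was therefore well above the highest control. The mean was 11.4 FPKM ± 4.14 (SD, n = 3) in control and 102 ± 16.1 (n = 3) with metformin, a 9.02-fold difference. On the scale of log2(FPKM + 1), on which all fold changes were fitted, Fos differed by 3.11 (SE 0.27), and by 2.82 without control replicate 1. This scale shrinks the fold change of genes with low values.

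Fosb (ENSMUSG00000003545, chr7:19302696-19310051, minus strand) encodes the FOS protein whose short splice form lacks the transactivation part. It was the least abundant member in every control sample, with 1.47, 2.40 and 2.70 FPKM. In the metformin samples it was listed at 18.1, 12.3 and 9.74 FPKM. The groups did not overlap, and the spread within the metformin group was wide, with replicate 1 well above replicate 3. The means of 2.19 ± 0.638 and 13.4 ± 4.26 FPKM (SD, n = 3 each) differed 6.10-fold, with a log2 fold change of 2.15 (SE 0.24). Reads of full-length and short Fosb mRNA were not separated here.

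Fosl1 (ENSMUSG00000024912, chr19:5447703-5455945, plus strand) encodes FRA1, a FOS protein without the C-terminal transactivation domain. Its levels were 8.18, 16.9 and 19.6 FPKM in control and 24.8, 27.9 and 25.6 FPKM with metformin. The groups did not overlap, but control replicate 1 was far below the other controls. The log2 fold change was 0.85 (SE 0.29) with all samples and 0.50 without control replicate 1. The longest Fosl1 transcript of the GENCODE annotation shares 1056 identical bases with the neighbouring gene Ccdc85b. In the deposited coordinates these genes do not overlap, and the deposited length of Ccdc85b was 609 bases. Whether the authors' counting split any reads between them is not known. Ccdc85b was looked at after this shared stretch was seen. It stood at 23.5, 89.8 and 98.9 FPKM in control and at 92.7, 95.1 and 90.1 FPKM with metformin. Fosl2 (ENSMUSG00000029135, chr5:32135801-32157842, plus strand) encodes the related FRA2. It varied little within groups, with 13.2, 14.0 and 16.0 FPKM in control and 22.6, 21.2 and 20.4 FPKM with metformin, and the groups did not overlap. Its log2 fold change was 0.54 (SE 0.10), and 0.49 without control replicate 1.

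The start-proximal sequences of the 2 FOS genes with the larger differences are shown because matches to some of the short motifs searched lie in them. The sequences are RefSeq's, on GRCm38.p6, and run 5′ to 3′ on the gene's strand. The Fos window is chr12:85473740-85473889, plus strand, and ends at the base before the start site. The Fosb window is chr7:19310052-19310195, minus strand, and ends 6 bases short of its start site because those bases are exonic. Capitals mark the letters TGACG, the conserved part of the cAMP response element, TATAAA, the TATA box, and the EGR site, searched as GCGTGGGCG or GCGGGGGCG.
Fos: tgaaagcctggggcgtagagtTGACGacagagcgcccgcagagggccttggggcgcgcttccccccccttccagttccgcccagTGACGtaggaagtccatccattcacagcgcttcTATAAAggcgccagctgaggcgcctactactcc
Fosb: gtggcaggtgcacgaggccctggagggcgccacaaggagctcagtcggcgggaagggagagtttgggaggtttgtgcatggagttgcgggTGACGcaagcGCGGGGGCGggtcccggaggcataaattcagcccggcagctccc
All motifs were searched on both strands over 250 bases before each RefSeq start. Sites further upstream were not searched. In Fos, TGACG began at positions -129 and -66 and TATAAA at -33, counted from the start site. In Fosb, TGACG began at -60 and the EGR site at -50. TGACG was present in 19.8% of the 27025 genes with a window, TATAAA in 14.3% and the EGR site in 3.47%. TGACG is also part of the full cAMP response element TGACGTCA, which was in 1.77% of genes and in no window of the 7 members that have one. The AP-1 site itself, searched as TGACTCA or TGAGTCA, was in 5.16% of genes and in none of these windows either. Such a match is a description of letters and not evidence of binding.

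**Figure D1:**
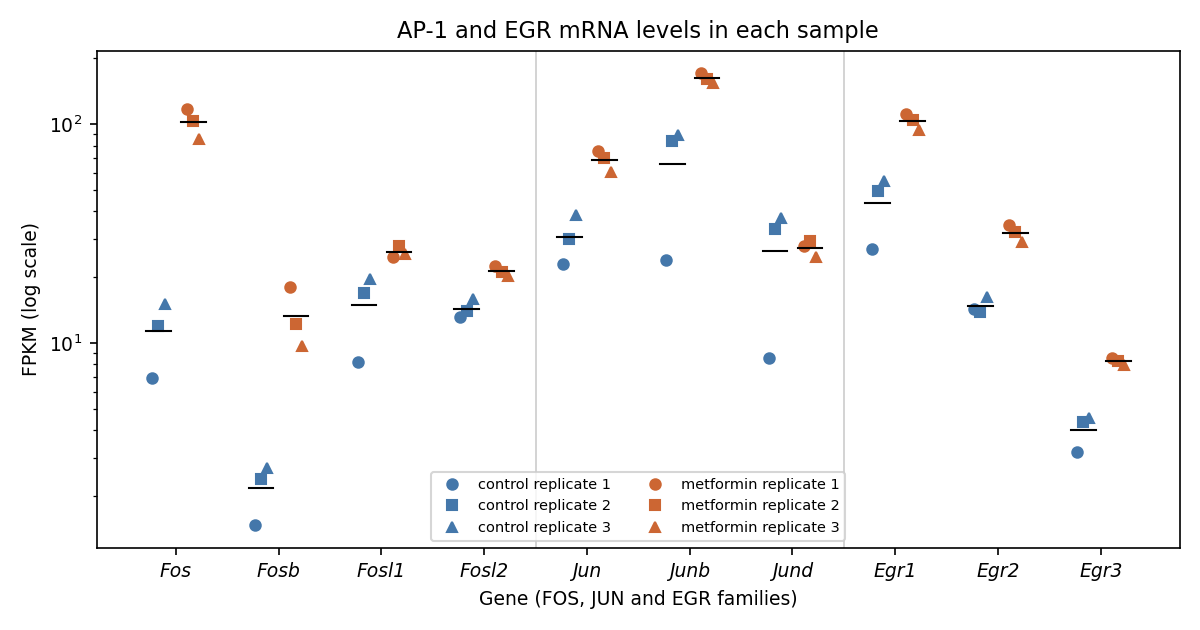
FPKM (log axis) of each AP-1 and EGR gene in each of the 6 samples, with blue for control, orange for metformin, a symbol for each replicate and a black bar at the group mean. The metformin samples lie above all controls for every gene except Jund, and control replicate 1 (blue circle) is the lowest control for 9 of the 10 genes.

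In the JUN family, Jun and Junb were each over 2 times as abundant with metformin, whereas Jund did not separate the groups. Jun (ENSMUSG00000052684, chr4:95049034-95052222, minus strand) encodes c-Jun, the main partner of FOS proteins and the target of the JNK kinases. It was listed at 22.9, 29.9 and 38.5 FPKM in control and at 75.4, 69.9 and 60.4 FPKM with metformin. All metformin samples lay above all controls. The means were 30.4 ± 7.79 and 68.6 ± 7.60 FPKM (SD, n = 3 each), with a log2 fold change of 1.17 (SE 0.19). The antisense gene Junos overlaps Jun, and it had 7 to 35 reads per sample, against at least 1334 for Jun.

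Junb (ENSMUSG00000052837, chr8:84974484-84978718, minus strand) encodes a JUN protein with weaker activation that can hold back c-Jun. It was the most abundant member in every sample except control replicate 1, where Egr1 was higher. Its levels were 24.1, 84.1 and 89.6 FPKM in control and 171, 161 and 154 FPKM with metformin. The groups did not overlap, and the low control replicate 1 set much of the spread. The mean difference was 2.46-fold over all samples and 1.87-fold without that replicate, and the log2 fold change went from 1.50 (SE 0.47) to 0.89 (SE 0.07). Prdx2, which overlaps Junb on the other strand, was between 46.7 and 59.3 FPKM in all 6 samples, and whether reads were assigned by strand is not given in the sources used here.

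Jund (ENSMUSG00000071076, chr8:70698949-70700616, plus strand) encodes the JUN protein that is usually present in resting cells. It stood at 8.60, 33.3 and 37.4 FPKM in control and at 27.9, 29.5 and 24.7 FPKM with metformin. The metformin samples lay between control replicate 1 and the other controls, and the groups overlapped. The log2 fold change was 0.28 (SE 0.50) with all samples, and it turned to -0.36 (SE 0.09) without control replicate 1. Thus the sign of the Jund difference was set by 1 library. Gm11175 overlaps Jund on the other strand and shares a stretch of 543 identical bases with it, and it was listed at 0 in every sample.

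The windows before the Jun and Junb starts are printed for comparison with those of the FOS genes, since these members moved in the same direction. The Jun window is chr4:95052223-95052372 and the Junb window chr8:84978749-84978898, both on the minus strand. In Jun the capitals mark TGACATCA, a variant of the AP-1 site known from this promoter, and in Junb they mark TGACG.
Jun: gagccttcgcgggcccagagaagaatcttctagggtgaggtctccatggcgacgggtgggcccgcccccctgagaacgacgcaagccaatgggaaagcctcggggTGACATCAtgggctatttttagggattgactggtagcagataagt
Junb: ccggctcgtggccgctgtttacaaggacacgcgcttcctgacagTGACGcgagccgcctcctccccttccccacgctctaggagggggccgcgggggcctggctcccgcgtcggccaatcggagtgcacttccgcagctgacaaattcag
TGACATCA began at -45 in Jun, and 3.41% of genes with a window held it. TGACG began at -106 in Junb. The Jund window held none of the 7 motifs searched, which says only that these letters are not in it. Its RefSeq start site, chr8:70697739, lies upstream of the Jund span given above, which begins at 70698949. It is therefore not the sequence next to that span and is not compared with the other windows.

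All 3 EGR genes were about 2 times as high with metformin, with 2.37-fold, 2.16-fold and 2.05-fold differences in mean FPKM for Egr1, Egr2 and Egr3. Egr1 (ENSMUSG00000038418, chr18:34859823-34864984, plus strand) encodes the zinc finger factor that many growth factors induce. It was at 27.1, 49.5 and 54.9 FPKM in control and at 112, 105 and 94.6 FPKM with metformin. The groups were apart, and control replicate 1 was again the lowest sample. The log2 fold change was 1.28 (SE 0.26), and 0.98 without that replicate.

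Egr2 (ENSMUSG00000037868, chr10:67535475-67542188, plus strand) encodes KROX20, best known for its part in myelination. It read 14.4, 13.9 and 16.3 FPKM in control and 34.7, 32.2 and 29.1 FPKM with metformin. Here the controls were close to one another, and control replicate 2 was the lowest. The log2 fold change of 1.06 (SE 0.10) was 1.04 without control replicate 1. Egr3 (ENSMUSG00000033730, chr14:70077203-70082614, plus strand) encodes a related factor needed for the development of muscle spindles. It was the least abundant member with metformin, with 3.18, 4.35 and 4.57 FPKM in control and 8.59, 8.28 and 7.97 FPKM with metformin. The groups did not overlap, and the log2 fold change was 0.89 (SE 0.12).

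Among the EGR genes, a RefSeq window was present for Egr2, and 1 of its start sites is shown because it holds a CArG box, the site of serum response factor. The window is chr10:67537719-67537868, plus strand, inside the span of the gene and outside its exons. Capitals mark the CArG box at -72 and TGACG or its reverse complement CGTCA at -111 and -55.
Egr2: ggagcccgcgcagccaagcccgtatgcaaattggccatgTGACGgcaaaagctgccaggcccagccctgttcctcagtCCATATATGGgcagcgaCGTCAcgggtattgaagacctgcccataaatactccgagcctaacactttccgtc
The CArG box was found in 1.62% of genes with a window, and among the 7 members with a window only in Egr2. Egr1, Egr3 and Fosl1 have no window and could not be searched, and Egr2 has more than 1. Fosl2 held an EGR site at -79 in a window that overlaps one of its own exons and is not printed.

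Taking the members as a set, 9 of the 10 had every metformin sample above every control, against 23.6% of the 12681 tested genes. By limma with Benjamini-Hochberg adjustment over all tested genes, 7 of the 10 members were called higher (adjusted p under 0.05), where 13.2% of tested genes were, and Fosl1, Junb and Jund were not called. Because the members were chosen on this contrast, nothing is read from either count, nor from the later counts of members called or at least 2 times control. Without control replicate 1 the calls became 9 higher and 1 lower, against 23.4% and 20.4% of tested genes, and the 1 lower was Jund. Without metformin replicate 1, 5 members were called higher, against 7.4% of tested genes in that fit. The median log2 fold change of the members was 1.11, against 0.0053 over all tested genes, and 0.94 without control replicate 1. Mean FPKM with metformin was at least 2 times that of control for 7 members and for 6.38% of tested genes. Without control replicate 1 this held for 4 members (Fos, Fosb, Jun and Egr2) and for 6.89% of tested genes, and Junb, Egr1 and Egr3 were at 1.87, 1.99 and 1.86 times control.

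**Figure D2:**
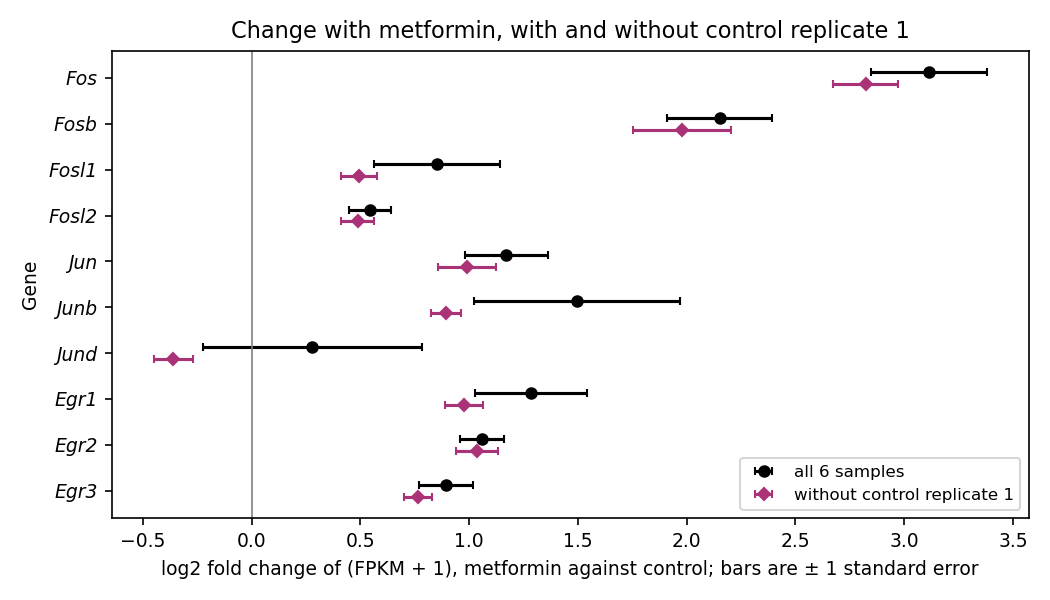
Log2 fold change of FPKM + 1 between metformin and control for each AP-1 and EGR gene, with bars of 1 standard error, for all 6 samples (black) and without control replicate 1 (purple). Leaving out that library moves Junb from 1.50 to 0.89 and Jund from 0.28 to -0.36, while Egr2 is at 1.06 and 1.04.

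The order of the members by level differed between the groups mainly through Fos, which ranked 8 of 10 in each control sample and 2, 3 and 3 in the metformin replicates 1, 2 and 3. With metformin the order of mean FPKM was Junb (162), Egr1 (104), Fos (102), Jun (68.6), Egr2 (32.0), Jund (27.3), Fosl1 (26.1), Fosl2 (21.4), Fosb (13.4) and Egr3 (8.28). In this order the sample ranges of Egr1 and Fos overlapped, as did those of Egr2 and Jund and of Jund and Fosl1, whereas all other neighbours were apart. In control the order was Junb (65.9), Egr1 (43.9), Jun (30.4), Jund (26.4), Fosl1 (14.9), Egr2 (14.8), Fosl2 (14.4), Fos (11.4), Egr3 (4.03) and Fosb (2.19). Neighbours from Junb down to Fos overlapped in their ranges, and Fos, Egr3 and Fosb were apart from one another.

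The make-up of AP-1 mRNA also differed. The summed FPKM of the 4 FOS genes was 29.8, 45.4 and 53.4 in control and 184, 165 and 142 with metformin, and that of the 3 JUN genes was 55.6, 147 and 165 against 274, 261 and 240. Fos held 8.10%, 6.25% and 6.91% of the sum over both families in control and 25.8%, 24.2% and 22.6% with metformin. Within the FOS family, Fos took 23.2% to 28.3% of the summed FPKM in control and 60.7% to 64.3% with metformin. Fosl2 took 29.9% to 44.3% of it in control and 12.3% to 14.4% with metformin, and Jund took 15.5% to 22.6% of the JUN sum in control and 10.2% to 11.3% with metformin. These shares did not overlap between the groups. Those of Junb and Jun in the sum over both families did overlap. Junb held 28.2% to 43.6% of it in control and 37.3% to 40.5% with metformin, and Jun 15.5% to 26.8% and 15.8% to 16.5%. In the EGR family, Egr1 held 60.7%, 73.1% and 72.5% of the sum in control and 72.1%, 72.2% and 71.8% with metformin. The make-up of the EGR family thus overlapped between the groups. The ratio of the FOS sum to the JUN sum was 0.536, 0.308 and 0.323 in control and 0.669, 0.631 and 0.592 with metformin. The value closest to the metformin samples was that of control replicate 1. These are shares of mRNA, and protein levels were not analysed here.

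**Figure D3:**
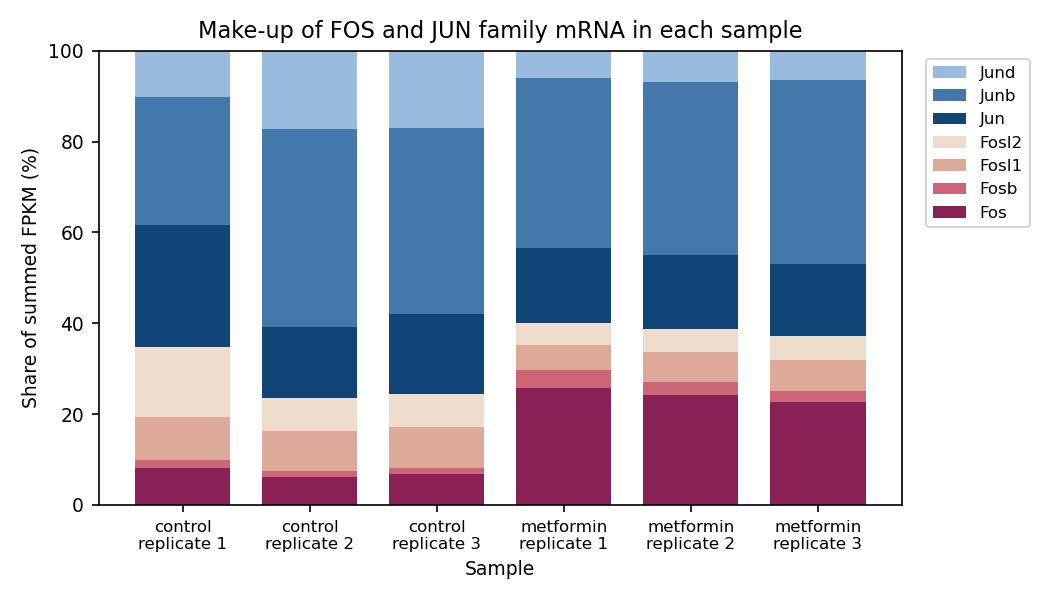
Share of each FOS and JUN gene in the summed FPKM of the 7 genes, as stacked bars that add to 100% for each sample. Fos (dark red, bottom) takes 6.25% to 8.10% of the bars in control and 22.6% to 25.8% with metformin.

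Within the groups, most members had the same order of samples. Control replicate 1 was the lowest control for 9 members and control replicate 3 the highest for all 10, and metformin replicate 3 was the lowest metformin sample for 9 members and metformin replicate 1 the highest for 8. The shares of all tested genes with these orders were not computed, so the counts are not read as a trait of the members. The spread within groups, as the pooled SD of log2(FPKM + 1), was near the top of all tested genes for Jund (percentile 98.8) and Junb (98.5), and lower for Egr2 (33.6) and Fosl2 (27.7). The log2 difference of control replicate 1 from the mean of the other controls was -1.92 for Jund, -1.81 for Junb, -1.06 for Fosl1, -0.92 for Egr1 and -0.87 for Fos. It was -0.17 for Fosl2 and -0.06 for Egr2. GC content, the share of G and C bases in the longest annotated transcript, moved with this difference over all tested genes. The median difference was 0.50 for genes with 33% to 36% GC and -0.84 for genes with 63% to 66% GC, with a Spearman correlation of -0.668 across genes, which share the library and are not independent. The GC content of the members was 51.3% (Egr3) to 67.1% (Jund), with a median of 55.8% against 49.5% over all tested genes. Of the 9 members with a GC class of enough genes (all except Jund), 7 lay below the lower quartile of their class, and Egr2 and Fosl2 did not. For Fos, at 51.9% GC, that quartile was -0.30, and for Junb, at 62.6% GC, it was -0.84. When a smooth GC trend was subtracted within each library, the log2 fold changes were 3.07 for Fos, 1.39 for Junb and 0.15 for Jund, and the median over all tested genes was -0.04. With this correction, chosen after seeing the data, 9 members were called higher, against 16.3% of tested genes. Nothing is read from this count, since the members were chosen on this contrast. What set control replicate 1 apart was not tested.

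**Figure D4:**
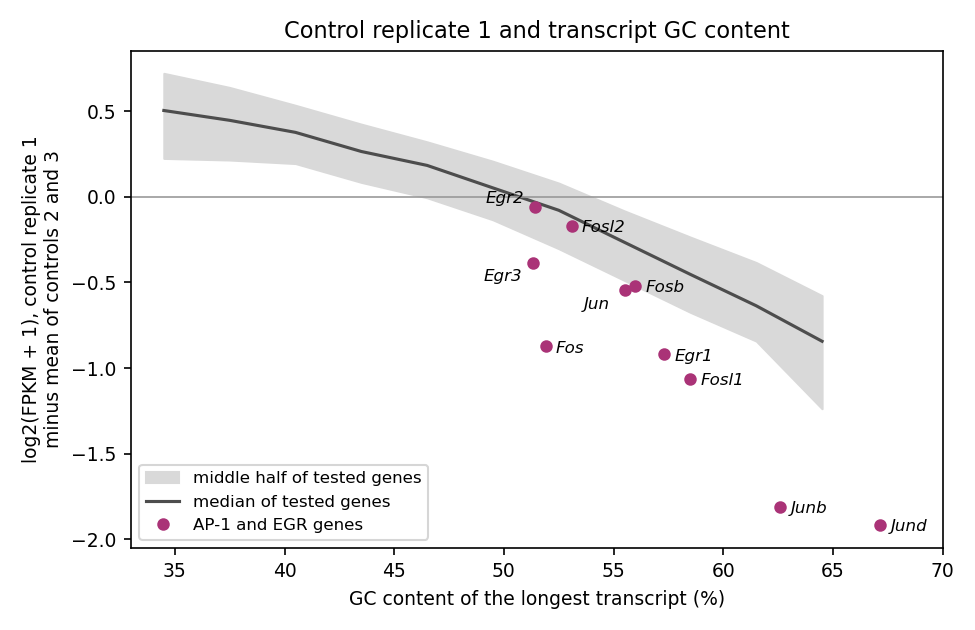
Difference of control replicate 1 from the mean of control replicates 2 and 3, in log2(FPKM + 1), against the GC content of the longest transcript in percent, for the 10 AP-1 and EGR genes (purple points), with the median (line) and interquartile range (grey) of all tested genes in classes of GC content. Junb and Jund lie lowest, at -1.81 and -1.92, and Egr2 and Fosl2 lie close to 0.

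Features that the choice of members did not use were then compared. Jun, Junb and Jund have 1 exon in their longest coding transcript, a form found in 2.46% of the 10913 tested coding genes. The 3 EGR genes have 2 exons and the 4 FOS genes have 4, where the median of tested coding genes was 9 and 20.7% had at most 4. The pentamer ATTTA, the core of AU-rich elements that mark short-lived mRNAs, was in the 3′ UTR of all 10 members and of 70.5% of tested genes, at 2.12 per kb in the members and 1.83 per kb in tested genes. The longer element TTATTTATT was in 2 members, Fos and Fosl2, and in 8.25% of tested genes. These 2 elements are shown with their flanks because this is the longer of the 2 elements searched, with the element in capitals. They lie at chr12:85477105-85477129 and chr5:32156873-32156897 of GRCm38, both on the plus strand.
Fos: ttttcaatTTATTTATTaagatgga
Fosl2: ttattttaTTATTTATTttaaatgt
The 2 genes that carry this element had the largest fold change (Fos, 3.11 on the log2 scale) and a fold change among the smallest (Fosl2, 0.54).

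The other genes of the pathway were counted from lists that were also drawn up with earlier results of these data known, so each count is read only beside the background of 13.2% of tested genes called higher and 9.28% called lower. The members are in none of these lists. Of 33 tested immediate early genes other than the members, 17 rose, 6 fell and 10 did not pass the test, with a median log2 fold change of 0.61. The matricellular gene Ccn1 (Cyr61 in the table) rose from 152 ± 27.1 to 685 ± 29.1 FPKM (SD, n = 3 each), with a log2 fold change of 2.18 (SE 0.15, adjusted p = 0.000206 by limma). Ier3, a survival-related early gene, rose by 1.89 log2 units (adjusted p = 0.000165 by limma), and Ccn2, which encodes connective tissue growth factor, rose by 1.58 log2 units (adjusted p = 0.000165). Gadd45b, a stress sensor, fell from 67.3 ± 2.84 to 32.9 ± 1.94 FPKM, or by 1.01 on the log2 scale (adjusted p = 0.000448 by limma). Rgs2, which restrains G protein signalling, fell from 1.34 ± 0.153 to 0.455 ± 0.0708 FPKM (SD, n = 3 each), with a log2 fold change of -0.69 (adjusted p = 0.00466 by limma) that was -1.38 with a pseudocount of 0.1 and -1.57 by voom. The kinase gene Sgk1 fell by 0.65 log2 units (adjusted p = 0.00346 by limma). Without metformin replicate 1 or 2, 10 genes of the list were called higher in each case, where 7.4% and 7.44% of all tested genes were. Without control replicate 1, 10 were called lower (20.4% of all tested genes), and without metformin replicate 3, 3 were (4.2%).

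Among 12 tested partners of AP-1 and related bZIP factors, 3 fell and 9 did not pass the test. None was called higher by limma, where 1 had an unadjusted p under 0.05 and voom called 0. Maf, which can pair with FOS and JUN proteins, fell from 70.6 ± 8.17 to 28.7 ± 0.983 FPKM (SD, n = 3 each), and its log2 fold change was -1.26 (SE 0.10, adjusted p = 0.000401 by limma). Ddit3, the stress factor CHOP, stood at 23.8, 35.7 and 46.6 FPKM in control and 14.2, 14.5 and 15.9 FPKM with metformin, and its fall of 1.15 log2 units (adjusted p = 0.0129 by limma) kept its call in 3 of the 6 fits with 1 sample removed, and lost it without control replicate 2, metformin replicate 1 or metformin replicate 2. Atf3, itself an immediate early gene whose product pairs with JUN proteins, stood at 9.53, 11.95 and 12.8 FPKM in control and 5.76, 4.84 and 4.29 FPKM with metformin. Thus Atf3 was lower in every metformin sample, opposite to Fos and Jun, with a log2 fold change of -1.06 (SE 0.14, adjusted p = 0.00269 by limma). Without control replicate 1 the list had 2 genes called higher and 5 called lower, where 23.4% and 20.4% of all tested genes were.

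Of 19 upstream factors and kinases, 4 rose and 15 did not pass the test. None was called lower by limma, where 1 had an unadjusted p under 0.05 and voom called 1. Srf, serum response factor itself, stood at 14.5, 27.2 and 33.3 FPKM in control and 52.0, 53.3 and 51.8 FPKM with metformin, so that it rose by 1.11 on the log2 scale (SE 0.28, adjusted p = 0.0299 by limma). Its partners Elk1 and Elk3 rose by 0.60 log2 units (adjusted p = 0.0226 by limma) and 0.51 log2 units (adjusted p = 0.00545), and the kinase gene Rps6ka1, named here after its value was seen, by 0.35 log2 units (adjusted p = 0.0366). The calls of Srf and Elk1 were lost without control replicate 2 and without any 1 of the metformin samples, and that of Elk3 was not lost in any of the 6 fits. The call of Rps6ka1 was lost in the same 4 fits, and also with the replicate number as a block (adjusted p = 0.117 by limma) and with the GC correction (adjusted p = 0.0963). It was lost as well with libraries scaled to their total reads and without the filter on low values. The MAP kinase genes of the list were not called. Without control replicate 1, 10 genes of the list were called higher and 2 lower, where 23.4% and 20.4% of all tested genes were. Without control replicate 2 or any 1 of the metformin samples, 1 was called higher, where 9.9% of all tested genes were without that control and 7.4%, 7.44% and 7.77% without metformin replicates 1, 2 and 3.

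Of 10 tested corepressors and reported targets of EGR, 3 rose and 7 did not pass the test, and examples are given. None was called lower by limma, where 1 had an unadjusted p under 0.05 and voom called 0. F3, tissue factor, rose from 56.7 ± 6.89 to 108 ± 0.591 FPKM (SD, n = 3 each), or by 0.92 on the log2 scale (SE 0.11, adjusted p = 0.00172 by limma), and Csf1, a growth factor for macrophages and osteoclast precursors, by 0.63 log2 units (adjusted p = 0.00656). The corepressors Nab1 and Nab2, which bind EGR proteins and hold back their activity, did not pass the test with all samples. Nab1 had a log2 fold change of 0.36 (adjusted p = 0.178 by limma). Without control replicate 1 it was 0.54 and called higher (adjusted p = 0.00174 by limma). Nab2 had a log2 fold change of 0.26 (adjusted p = 0.686 by limma), which turned to -0.24 without control replicate 1 and was then called lower (adjusted p = 0.00988 by limma). Without that library the list had 4 genes called higher and 2 lower, where 23.4% and 20.4% of all tested genes were.

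Among 20 tested genes reported as AP-1 targets, 11 rose, 5 fell and 4 did not pass the test, with a median log2 fold change of 0.59. Ptgs2, which encodes cyclooxygenase-2, was at 2.14, 1.46 and 1.60 FPKM in control and 26.0, 21.99 and 22.9 FPKM with metformin, so that it rose by 3.18 on the log2 scale (SE 0.12, adjusted p = 6.43e-05 by limma). The chemokine gene Ccl2 rose from a low level of 0.329 ± 0.0329 to 3.68 ± 0.423 FPKM (SD, n = 3 each), with a log2 fold change of 1.81 (adjusted p = 0.000112 by limma) that was 3.14 with a pseudocount of 0.1 and 3.37 by voom. Plau, the urokinase gene, rose by 1.55 log2 units (adjusted p = 0.000829 by limma). The 3 largest falls were those of bone matrix genes and a collagenase. Ibsp, bone sialoprotein, fell by 1.60 log2 units (adjusted p = 0.000578 by limma), Spp1, osteopontin, by 1.50 log2 units (adjusted p = 0.000471), and Mmp13 by 1.40 log2 units (adjusted p = 0.000415). Spp1 went from 7703 ± 989 to 2704 ± 23.4 FPKM (SD, n = 3 each). Ibsp and Spp1 are also among the 8 osteoblast markers, of which Col1a1 and Col1a2 rose, Ibsp and Spp1 fell, and Runx2, Sp7, Alpl and Bglap were not called. In the table's coordinates, Ccn2, Maf, Ddit3, Atf3, Srf, Elk1, Elk3, Nab2, Ccl2 and Spp1 overlap other genes, Elk3 also shares 319 identical bases with Cdk17, and Nab1 shares sequence with Cog7, so reads of these genes could have been split.

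**Figure D5:**
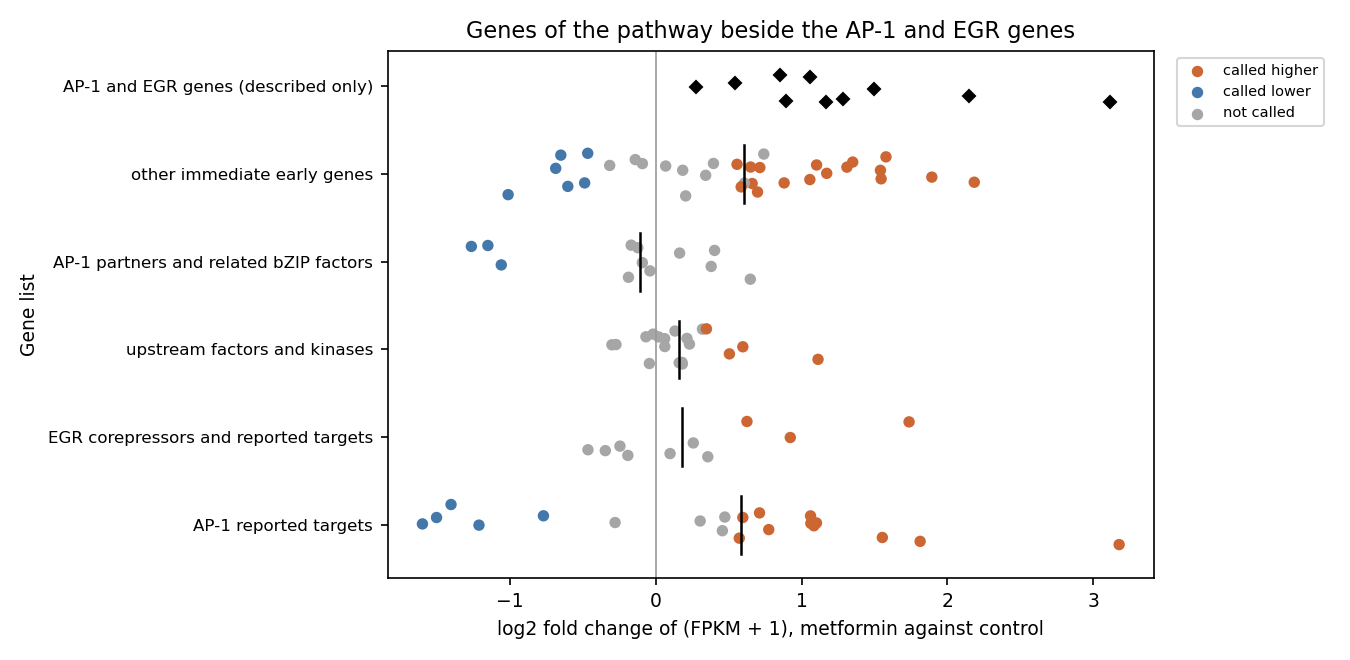
Log2 fold change of FPKM + 1 between metformin and control for the AP-1 and EGR genes (black diamonds, described only) and for the tested genes of 5 lists, coloured by the limma call (orange higher, blue lower, grey not called), with a vertical bar at each list's median. The immediate early genes and AP-1 targets spread to both sides of 0 with medians of 0.61 and 0.59, and the bZIP list has its 3 called genes on the lower side.

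The genes with the profile closest to that of a member were found by the root mean square difference of log2(FPKM + 1) over the 6 samples, after each gene was centred on its own mean. The 5 tested genes outside the set closest to Fos were Kifc1 (0.311), Plk1 (0.364), Kifc5b (0.377), Cdc20 (0.388) and Sdc3 (0.406), of which Kifc1 and Kifc5b are near-identical copies that could share reads. All were closer to Fos than Fosb was (0.512). The 5 closest to Egr1 were Col8a2 (0.0793), Hcn2 (0.113), Srf (0.118), Tubb4b-ps1 (0.132) and Gm5518 (0.134), the last pair with near-identical copies elsewhere, and Jun lay at 0.151. The distance takes in both the difference between the groups and the deviation of each sample, control replicate 1 included.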

How the data were processed

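Libraries were made from total RNA with an Illumina TruSeq kit, and the samples were grouped by the treatment in their labels. The authors deposited 1 table of normalized values per gene and sample with the gene length. Its unit is not named, and the values were identified as FPKM deposited by the authors, because FPKM times gene length gave whole multiples of 1 read in each sample for 100% of values above 0 (tolerance 0.01 reads). The gene lengths, a further column deposited by the authors, are in bases. The submitters' processing notes name Bowtie 0.12.2 and the builds mm8 and mm9, yet the coordinates are those of GRCm38 (53499 of 54532 genes as in GENCODE M21). The study tested read counts with DESeq2, whose output was not used here.

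Recovered reads were 18399861 to 20652437 in control and 19256672 to 22111790 with metformin. A floor of 3 reads, which allows for counting error only, was 1.36e-05% to 1.63e-05% of the reads of a sample. Genes with mean FPKM of 0.5 or more (12681) entered limma 3.58.1 (R 4.3.3, trended prior variance, pseudocount 1), with Benjamini-Hochberg adjustment and a threshold of 0.05. The median chi-square per gene between samples of a group was 1.141 to 1.245 for metformin pairs. For control pairs it was 2.805 (replicates 2 and 3), 10.77 (1 and 2) and 13.03 (1 and 3), so the spread was unequal between the groups. All values were above what counting error alone gives, so no pair was treated as 1 library deposited more than once. This does not show that the samples came from separate cultures. Longest transcripts came from GENCODE M21, promoter windows from RefSeq (7 of 10 members matched), and near-identical transcripts (95% identity over 200 bases) from BLAST 2.17.0. Figures were drawn with matplotlib 3.10.9.

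The members and gene lists were chosen with earlier results of these data known. Named were all members, up to 3 genes per direction and list with the largest fold change past the threshold, Atf3, Srf, Nab1 and Nab2, the 5 nearest profiles to Fos and Egr1, and genes overlapping a member. A result that this rule would name is not reported here. The results were recomputed with log2(FPKM + 0.1), with libraries scaled to their total reads, without the filter, with at least 10 reads per sample, with voom on recovered reads (1666 genes higher and 1419 lower), with a replicate block and without each sample. A GC correction (spline with 5 degrees of freedom per library) was chosen after seeing the data. Replicate numbers come from the titles, which do not say that equal numbers belong together.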

Additional observations from a re-analysis of the deposited data

How the results depend on the processing

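The members had at least 168 reads in every sample, and the limit on the comparisons was the number of samples, 3 per group, with control replicate 1 apart from the others. The log2 fold changes of the members kept their direction under every alternative except that of Jund, which ranged from -0.36 (without control replicate 1) to 0.64 when 1 sample was left out, and their median stayed between 0.94 and 1.24. That of Fosb moved to 2.55 with a pseudocount of 0.1 and to 2.57 with voom, and Rgs2 and Ccl2 moved further on the same changes. Among other named genes, Nab2 ranged from -0.24 (without control replicate 1) to 0.51. With the replicate block, 1161 genes were called higher and 698 lower, against 1670 and 1177, and among members and named genes the call of Rps6ka1 was lost. The deviations of samples that share a number correlated at -0.0534, 0.000265 and -0.0549 across genes, so no pairing was assumed. The GC correction gave 2433 lower genes, and 1888 with the replicate block. Leaving out 1 sample gave 938 to 2969 higher and 495 to 2590 lower genes. In the lists it gave 10 to 19 immediate early genes higher and 3 to 10 lower, 0 to 2 bZIP factors higher and 2 to 5 lower, 1 to 10 upstream genes higher and 0 to 2 lower, and 0 to 2 EGR-list genes lower. Of bZIP factors, 1 was higher with at least 10 reads in every sample, 1 with the GC correction and 1 with both the block and that correction, and 5 were lower with the GC correction. Of upstream genes, 1 was higher with no filter, and lower were 1 with voom, 2 with the GC correction and 2 with block and correction. Of EGR-list genes, 2 were lower with the GC correction and 1 with block and correction. The counts of AP-1 targets stayed at 9 to 13 higher and 4 to 6 lower under these omissions. With no filter the calls of Elk1, Gm5518, Rps6ka1, Spp1 and Srf were lost, and with libraries scaled to their total reads that of Rps6ka1 was lost. The cause of these shifts was not tested.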
